A study of Mus musculus with 8 samples.

Results

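Chromatin loops that were listed for FOXA1 and for HNF4G, in both the primary tumour line and the liver metastasis line, are described here as constitutive loops. They were chosen by their presence in the lists: a loop was a member when the same pair of anchors was present in all 4 loop lists and the midpoints of its anchors lay at least 20 kb apart. This left 8125 loops of 232379 distinct loops of at least 20 kb (3.5%), and of 249200 distinct loops in all. The word constitutive stands for that rule alone. It says that a loop was listed 4 times, not that the contact had equal strength in the 4 groups.

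The cells were untreated mouse pancreatic cancer cells in culture and were labelled WT for genotype. They came from KPC mice, a model in which Cre, driven by the Pdx1 promoter in its usual form, turns on the cancer-driving mutations of the model in the pancreatic epithelium. One line was derived from a primary tumour and the other from a matched liver metastasis (liver mets), and whether either is a single clone was not stated. Hi-ChIP, which joins chromatin conformation capture with immunoprecipitation and so reads contacts at sites bound by a chosen protein, was done with an antibody against FOXA1 or against HNF4G. The groups were FOXA1 liver mets, FOXA1 tumour, HNF4G liver mets and HNF4G tumour, with 2 replicates in each of the 4 groups. Each group had 1 list that covered both replicates, so no spread between replicates could be given. The 95% intervals below cover counting error only; each loop enters as if independent, while many have an anchor in common. The lists hold no read counts, so the depth behind a loop is unknown.

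A chromatin loop brings stretches of DNA that lie far apart on a chromosome into contact. Loops between a gene's start and a distal element can carry the signal of an enhancer, loops between gene starts bring promoters together, and loops held by the protein CTCF and the cohesin ring form at CTCF sites that face each other. FOXA1 is a forkhead factor that can bind closed chromatin in endoderm-derived tissues. HNF4G is a nuclear receptor of the gut and pancreas epithelium. An antibody against either factor enriches contacts of the regions it binds.

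Several sequences show what lies inside the anchors, all on mm10, the UCSC name of GRCm38, and read 5′ to 3′ on the strand given. The first set shows the CTCF core motif in the 3 constitutive loops with facing motifs that had the highest lowest value over the lists, because these pairs show what facing means: the motif reads forward on the plus strand at the left anchor and on the minus strand at the right anchor. Capitals mark the 12-letter core.

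Klf10, left, in an exon of Klf10, chr15:38297434-38297473, plus strand: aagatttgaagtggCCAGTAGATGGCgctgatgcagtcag
Klf10, right, intergenic, chr15:38473916-38473955, minus strand: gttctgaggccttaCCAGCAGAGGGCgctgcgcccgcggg
Vegfa, left, in an intron of F630040K05Rik, chr17:45735619-45735658, plus strand: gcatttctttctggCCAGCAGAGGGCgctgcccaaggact
Vegfa, right, in an intron of Vegfa, chr17:46027809-46027848, minus strand: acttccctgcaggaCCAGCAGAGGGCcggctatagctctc
Qrich2, left, intergenic, chr11:116319151-116319190, plus strand: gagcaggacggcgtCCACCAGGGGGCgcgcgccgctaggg
Qrich2, right, in an intron of Qrich2, chr11:116446184-116446223, minus strand: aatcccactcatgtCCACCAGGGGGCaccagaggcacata

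The second set shows the anchors of the keratin loops, which had the top value in every list. Capitals mark the letters searched for FOXA factors (TGTTTAC), HNF4 factors (CAAAGTC) or AP-1 (TGANTCA), on either strand. The match nearest to the midpoint of the anchor is shown, and the Krt19 anchor held no FOXA match.

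Gm35853 anchor, FOXA, intergenic, chr15:101319789-101319823, minus strand: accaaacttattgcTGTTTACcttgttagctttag
Gm35853 anchor, HNF4, in an intron of Gm35853, chr15:101324771-101324805, plus strand: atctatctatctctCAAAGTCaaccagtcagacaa
Gm35853 anchor, AP-1, in an intron of Gm35853, chr15:101325640-101325674, plus strand: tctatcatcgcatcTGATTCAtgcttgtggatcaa
Krt18 anchor, FOXA, in an intron of Krt18, chr15:102029048-102029082, minus strand: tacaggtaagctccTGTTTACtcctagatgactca
Krt18 anchor, HNF4, in an intron of Krt18, chr15:102031722-102031756, minus strand: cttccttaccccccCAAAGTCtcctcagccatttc
Krt18 anchor, AP-1, in an intron of Krt18, chr15:102029034-102029068, plus strand: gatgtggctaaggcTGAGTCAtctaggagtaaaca
Krt19 anchor, HNF4, in an intron of Krt19, chr11:100147161-100147195, plus strand: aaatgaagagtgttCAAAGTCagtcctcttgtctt
Krt19 anchor, AP-1, in an intron of Krt19, chr11:100147740-100147774, plus strand: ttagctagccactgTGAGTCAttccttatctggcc
Gm14206 anchor, FOXA, in an intron of Gm14206, chr11:100290383-100290417, minus strand: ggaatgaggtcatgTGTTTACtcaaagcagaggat
Gm14206 anchor, HNF4, in an intron of Gm14206, chr11:100289531-100289565, minus strand: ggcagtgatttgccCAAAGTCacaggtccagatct
Gm14206 anchor, AP-1, in an intron of Gm14206, chr11:100288835-100288869, plus strand: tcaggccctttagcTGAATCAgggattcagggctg

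At the Krt18 anchor the FOXA and AP-1 windows overlap inside an intron of Krt18. The start of Krt18 itself held none of the 5 motifs. It is printed because the loop with the top values ends there. The window is that of the RefSeq promoter table around the gene start, on the plus strand of GRCm38.p6.

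Krt18 promoter, chr15:102027966-102028265, plus strand: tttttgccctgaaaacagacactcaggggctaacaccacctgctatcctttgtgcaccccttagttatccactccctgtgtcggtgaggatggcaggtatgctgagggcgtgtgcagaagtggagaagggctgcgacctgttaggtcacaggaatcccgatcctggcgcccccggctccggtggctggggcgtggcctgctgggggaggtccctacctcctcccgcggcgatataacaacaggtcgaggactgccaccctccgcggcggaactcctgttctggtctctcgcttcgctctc

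Of 32851 RefSeq promoter windows of this length, 3.65% held the FOXA letters, 4.44% the HNF4 letters, 7.81% the AP-1 letters, 6.05% the YY1 letters (AANATGGC) and 0.557% the CTCF core. The promoter table held 5 of the 8 protein-coding genes that start at the anchors of the 10 loops named first below.

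The 8125 constitutive loops made up 7.20% of the 112900 loops of at least 20 kb in the FOXA1 liver mets list. They made up 8.83% of the 92057 FOXA1 tumour loops, 12.1% of the 67079 HNF4G liver mets loops and 12.2% of the 66544 HNF4G tumour loops. The share is larger in the HNF4G lists because those lists are shorter and the number of members is the same in each. A further 18159 loops were listed in exactly 3 lists, 45508 in exactly 2 and 160587 in exactly 1.

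Each list gives a value per loop, which the authors left unnamed. It was read here as the −log10 of an adjusted p, from its ties and from its ceiling of 20, and its scale may differ between lists, which differ in length, in their tied values and in how many loops reach the ceiling. Values of different lists are therefore given side by side. They were combined to choose which loops to name, and which loop of a gene is called its strongest, by the lowest and then the summed value. Among the loops of at least 20 kb that had the ceiling value of 20, most were constitutive. They were 195 of 252 such loops in the FOXA1 liver mets list (77.4%), 74 of 80 in the FOXA1 tumour list (92.5%), 50 of 51 in the HNF4G liver mets list (98.0%) and 65 of 73 in the HNF4G tumour list (89.0%). Yet the median value of a constitutive loop was 0.842, 0.816, 0.914 and 0.871 in the same order, below the medians of the other loops of each list at 1.63, 1.69, 1.78 and 1.81. Those other loops were longer. Set against loops of the same span range in the same list, the median member stood at percentile 79.5, 74.5, 66.9 and 67.5 in the same order. The lower quartiles of the members were 0.249, 0.124, 0.146 and 0.171. If the value is the −log10 of an adjusted p, such values are weak evidence for a contact. Only 394 of the 8125 members had 2 or more in every list. Below, joined means listed as a loop, at whatever value.

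Only 259 members had the ceiling value in at least 1 list. In 178 of them it was reached in 1 list, in 50 in 2 lists, in 18 in 3 lists and in 13 in all 4. The FOXA1 liver mets list alone gave 121 of the 178, followed by HNF4G tumour with 27, HNF4G liver mets with 16 and FOXA1 tumour with 14. The longest list thus also held most of the top values. Both FOXA1 lists but neither HNF4G list reached it in 29 loops, both HNF4G lists but neither FOXA1 list in 3, both liver mets lists but neither tumour list in 5, and both tumour lists but neither liver mets list in 0. With 1 list per group these counts describe the lists and were not tested. Values of the members in different lists were only moderately related. Across the 3570 members of 20 to 50 kb the rank correlation was 0.463 between the FOXA1 lists, 0.356 between the HNF4G lists and 0.378 to 0.402 for the pairs of a FOXA1 with an HNF4G list. The order of the pairs changed with span. Across the 2364 members of 50 to 100 kb it was 0.445 between the HNF4G lists and 0.372 between the FOXA1 lists, and over the 5 span ranges up to 1000 kb all pairs lay between 0.278 and 0.536. These loops share anchors and read depth, so the correlations are a description.

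Constitutive loops were short. Their median span was 56.8 kb (interquartile range 33.8 to 106 kb), against 80.8 kb for loops of 3 lists, 138 kb for loops of 2 and 364 kb for loops of 1. Only 2191 of them (27%) spanned 100 kb or more, against 85.3% of the loops of 1 list. Among distinct loops of 20 to 50 kb, 13.9% (95% Wilson interval 13.4 to 14.3%) were constitutive. The share fell to 7.40% at 50 to 100 kb, 3.36% at 100 to 200 kb, 1.00% at 200 to 500 kb and 0.291% at 500 to 1000 kb. At 1000 kb and more 4 loops were left, which is 0.0132% (0.00513 to 0.0339%).

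The span also set how much of the map each list filled. Of the 31590 possible anchor pairs at 20 to 50 kb, 52.2% were listed as a loop in FOXA1 liver mets, 47.5% in FOXA1 tumour, 40.1% in HNF4G liver mets and 36.1% in HNF4G tumour. All 4 lists held 11.3% of those pairs. Loops of 1 list had therefore to be matched on span before they were compared with constitutive loops, and shares of loops are compared below within 6 span ranges unless stated otherwise. Summed widths, loops per anchor and the properties of single anchors are given without span matching.

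**Figure D1:**
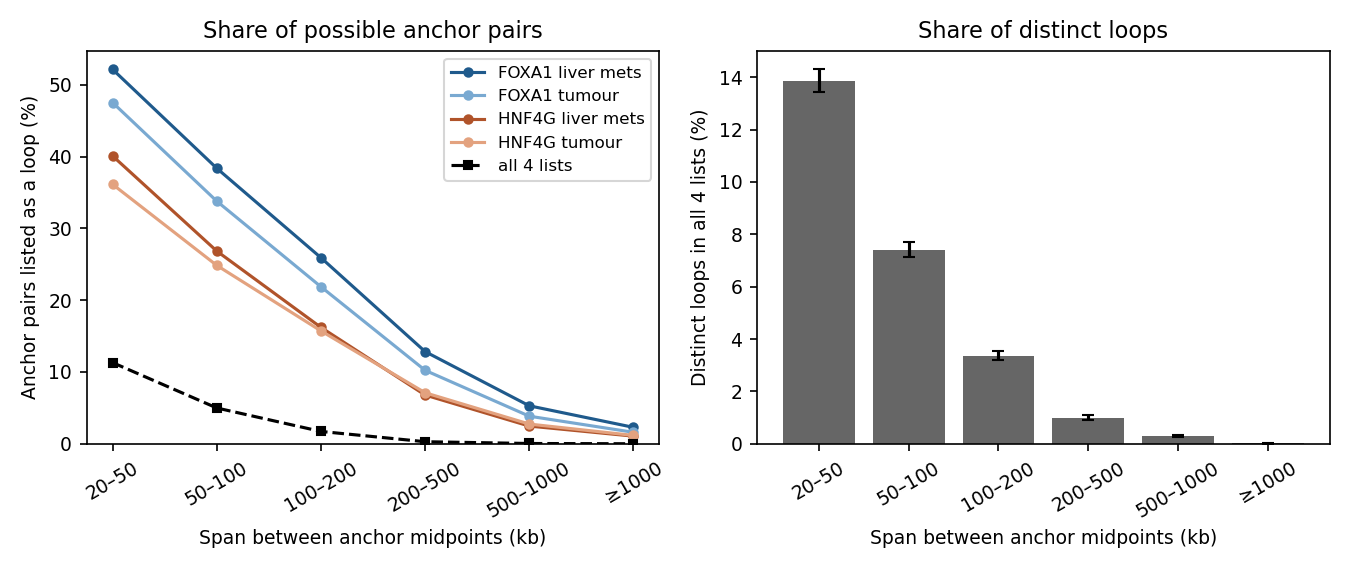
Left, the percent of possible anchor pairs in each span range that was listed as a loop, for each of the 4 lists (colours) and for all 4 together (black squares). Right, the percent of distinct loops of each range that was constitutive, with 95% Wilson intervals. It falls from 13.9% at 20 to 50 kb to 0.0132% at 1000 kb and more.

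The rule's limit at 20 kb cut through a continuous range. Just above it lay a loop between the starts of Grpel1 and Tada2b, with a span of 20.002 kb and values of 0.452, 0.336, 0.146 and 0.931 in the FOXA1 liver mets, FOXA1 tumour, HNF4G liver mets and HNF4G tumour lists, the order used for all values below. Next came a loop from the start of Fads3, a fatty acid desaturase gene, into Fads3, with a span of 20.009 kb and values of 1.87, 0.303, 3.25 and 0.171. Just below it lay loops within Sufu (19.998 kb) and within Kcnn3 (19.997 kb), with values of 0.536, 1.54, 0.144 and 0.164 for Sufu and 0.239, 0.358, 0.385 and 0.434 for Kcnn3. In all lists 13168 loops of any span were shared.

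Of 8125 constitutive loops, 2682 (33.0%) had a promoter at both anchors, meaning that a transcription start lay within 2 kb of each. Another 3694 (45.5%) had a promoter at 1 anchor and 1749 (21.5%) at neither. After matching on span, the loops of 1 list had both anchors at promoters in 24.5%, 1 in 42.9% and none in 32.5%. The difference was 8.47 percentage points for both (7.36 to 9.59; Mantel-Haenszel odds ratio 1.49, 1.42 to 1.57) and -11.0 points for none (odds ratio 0.577, 0.544 to 0.611). For exactly 1 promoter it was 2.52 points (odds ratio 1.11, 1.05 to 1.16), and with starts counted within 5 kb this ratio turned to 0.975 (0.928 to 1.02).

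Anchor size moved with this result. Constitutive loops joined wide anchors, with a median summed width of 8232 bp against 6585 bp for loops of 3 lists, 5848 bp for 2 and 5403 bp for 1. Their less connected anchor took part in a median of 25 other distinct loops of any span, against 21, 18 and 16. When loops were matched on span and summed width, the odds ratio for both promoters was 1.11 (1.04 to 1.18). When they were matched on span and loops per anchor it was 1.03 (0.977 to 1.10). With all 3 matched, an alternative chosen after seeing the data, it turned to 0.895 (0.839 to 0.954), and the odds ratio for no promoter became 0.958 (0.894 to 1.03). Constitutive loops with 1 promoter anchor remained more frequent under that matching, with an odds ratio of 1.13 (1.07 to 1.20). The excess of promoter to promoter loops was thus not found once loops per anchor were matched. With anchor width matched as well, the interval lay below 1.

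**Figure D2:**
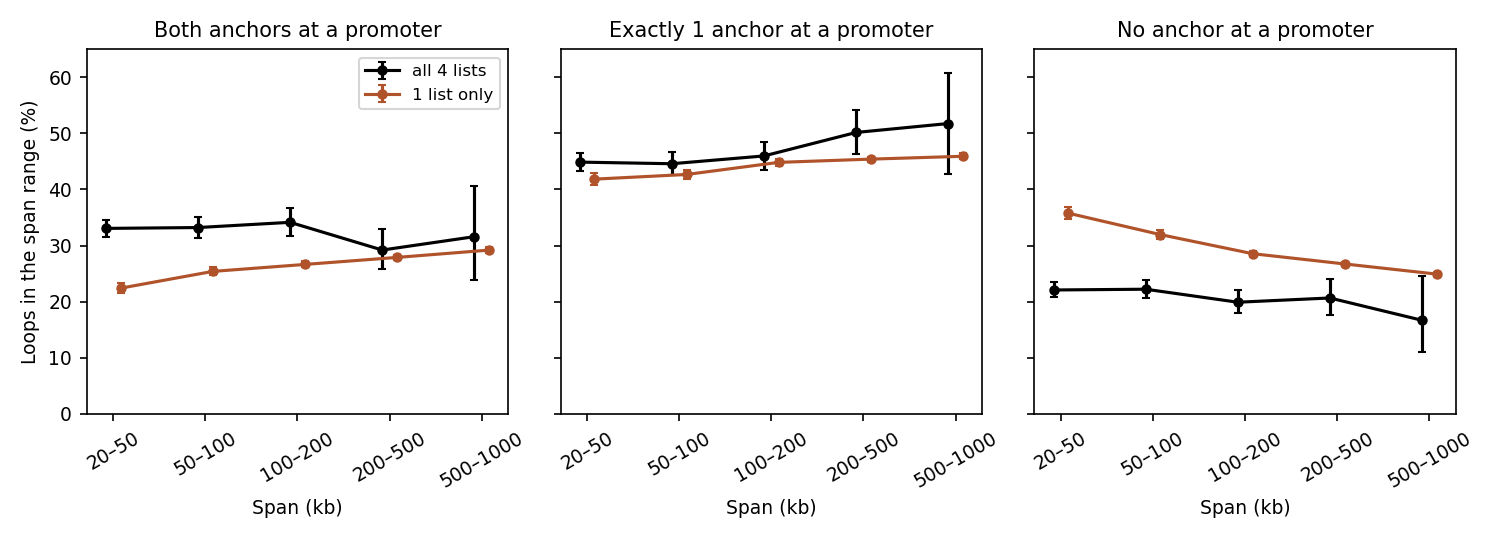
The percent of loops with both, exactly 1 or no anchor at a promoter in 5 span ranges, for loops of all 4 lists (black) and loops of 1 list only (orange), with 95% Wilson intervals. At 20 to 50 kb both anchors lay at promoters in 33.1% of the constitutive loops and 22.4% of the loops of 1 list, while at 200 to 500 kb the shares were 29.2% and 27.9%. The 1000 kb range, with 4 constitutive loops, is not drawn.

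The difference in class was clearest at short spans. At 20 to 50 kb both anchors were promoters in 33.1% of constitutive loops (31.5 to 34.6%) and in 22.4% of loops of 1 list (21.5 to 23.3%). At 200 to 500 kb the shares were 29.2% (25.8 to 32.9%) and 27.9% (27.5 to 28.3%), which their intervals do not separate. Loops with no promoter were less frequent among constitutive loops at every range drawn. At 500 to 1000 kb the shares were 16.7% of 114 loops (10.9 to 24.6%) and 24.9% (24.4 to 25.4%), and these intervals overlap.

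Among loops with 1 promoter anchor, the other anchor lay inside a gene that started at the promoter anchor in 20.1% of 3694 constitutive loops, against 12.8% of span-matched loops (odds ratio 1.79, 1.63 to 1.98). No other promoter anchor lay between the anchors in 38.3%, against 34.9% (odds ratio 1.22, 1.12 to 1.32). Constitutive loops of all classes joined neighbouring anchors, with no other anchor between, less often, in 9.11% against 14.8% (odds ratio 0.551, 0.505 to 0.601). None of these shares was recomputed with anchor width or loops per anchor matched.

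CTCF motifs were more frequent at constitutive loops than at span-matched loops of 1 list. At least 1 anchor held the core in 15.5% against 8.30% (odds ratio 2.07, 1.93 to 2.22), and both anchors held it in 61 loops, 0.751% against 0.260% (odds ratio 3.0, 2.20 to 4.10). Wider anchors hold more motifs, and with width matched the latter odds ratio was 1.74 (1.18 to 2.56). With width and loops per anchor matched it was 1.36 (0.920 to 2.01), and for motifs within 1 kb of the midpoint, with span matched, 1.42 (0.860 to 2.34).

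Facing motifs were a separate matter. In 56 constitutive loops each anchor held the core on 1 strand only. In 25 of them the motifs faced each other (44.6%, 32.4 to 57.6%), in 23 they pointed the same way and in 8 they pointed apart. Without span matching, facing motifs made up 32.9% of 76 such loops of 3 lists, 29.3% of 147 of 2 lists and 25.7% of 482 of 1 list. After matching, the share in loops of 1 list was 21.6%, a difference of 23.1 points (9.23 to 36.9) and an odds ratio of 2.99 (1.55 to 5.77). The odds ratio was 4.13 (1.68 to 10.2) with width matched, which left 51 of the 56 loops, and 3.38 (1.63 to 7.02) with loops per anchor matched, which left 49. With both matched it was 4.91 (1.73 to 13.9), but that rests on only 30 constitutive loops and 123 of 1 list. Against loops of 2 lists it was 1.92 (0.981 to 3.74) and against loops of 3 lists 1.66 (0.814 to 3.39). A shorter core of 9 letters (CCAGGGGGC) gave 1.46 (0.733 to 2.92). It had more constitutive loops, 86 against 56, but fewer loops of 1 list, 243 against 386. The direction held under each of these, but the latter 3 intervals include 1.

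**Figure D3:**
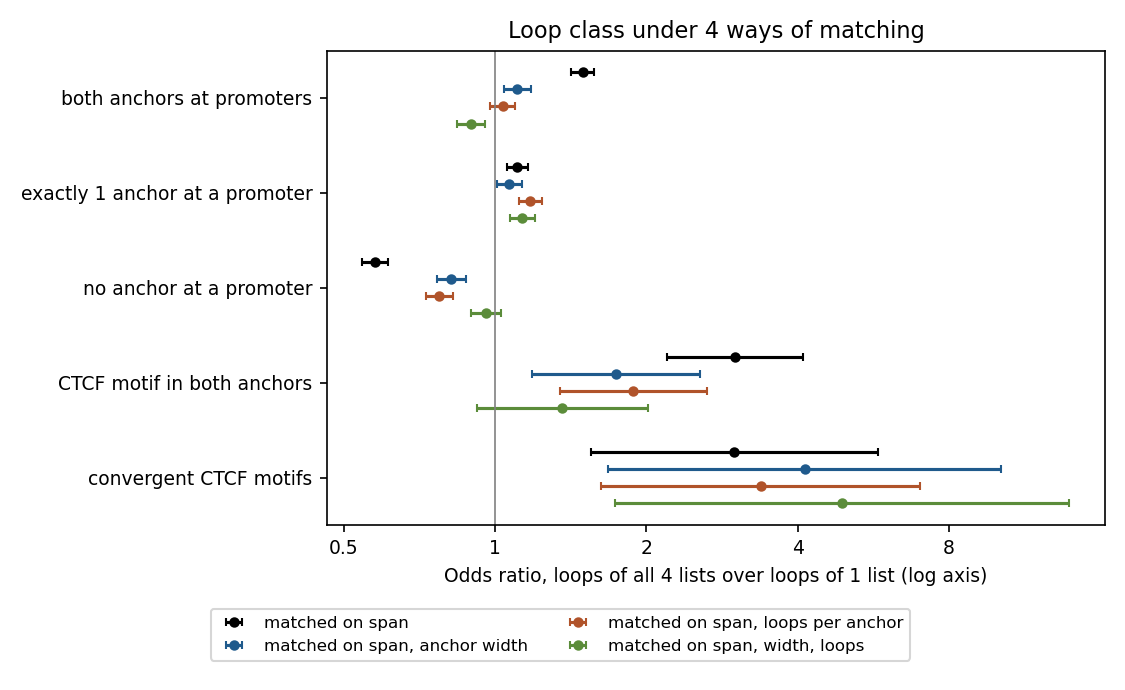
Odds ratios with 95% intervals, on a log axis, for 5 loop classes in constitutive loops over loops of 1 list, under 4 ways of matching (colours). The ratio for both anchors at promoters moves from 1.49 with span matched to 0.895 with span, width and loops per anchor matched, while that for facing CTCF motifs lies between 2.99 and 4.91.

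In the first of the loops with facing motifs the left anchor covered Klf10, a TGF-beta-induced zinc finger factor, and the right anchor was intergenic, 171 kb away. It had the ceiling value of 20 in all 4 lists, with 9 other anchors between. The second joined the start of F630040K05Rik to that of Vegfa, the vascular growth factor, over 294 kb, with values of 20, 10.3, 11.1 and 20. The third ended at Qrich2, spanned 128 kb and had values of 6.05, 5.44, 8.66 and 4.16. The windows of these loops are printed above.

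The constitutive loops used 7905 of 30542 anchors. These were wider than the other anchors (median 2946 against 2206 bp), lay more often at a promoter (51.2 against 43.2%) and were richer in G+C (50.2 against 47.8%). They touched exons in 55.2% and introns alone in 20.6%, and 24.2% were intergenic. Per kb, CTCF motifs were denser in them, at 0.0178 against 0.0135. FOXA motifs were sparser (0.160 against 0.188 per kb), as were YY1 motifs (0.171 against 0.192) and AP-1 motifs (0.411 against 0.443). HNF4 motifs had nearly equal densities (0.167 against 0.164), a ratio of 1.02 (0.982 to 1.05).

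Shares of anchors gave another order for FOXA than densities did. The letters TGTTTAC were present in 40.2% of constitutive and 35.4% of other anchors, but within the central 2 kb the shares were 27.8% and 31.9%. Among anchors without a promoter the FOXA density was 0.180 per kb in constitutive and 0.215 in other anchors, and at promoters 0.144 and 0.155. The order was thus the same in both kinds of anchor. For AP-1 it was not: outside promoters the density was 0.506 against 0.542 per kb, and at promoters 0.334 against 0.323. Among the narrowest anchors of 3 width ranges the AP-1 density of constitutive over other anchors was 0.855 (0.802 to 0.911), but 0.974 (0.929 to 1.02) and 0.985 (0.956 to 1.02) in the wider ranges. The AP-1 letters lay in 68.0% of constitutive and 62.1% of other anchors. For FOXA the ratio was below 1 in all 3 width ranges, at 0.806 (0.726 to 0.894), 0.891 (0.825 to 0.961) and 0.865 (0.825 to 0.906). G+C content moved with these densities, and its part was not tested.

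Constitutive loops were spread unevenly over chromosomes. Chromosome 19 held 886 where 537 would follow from its loops and their spans, a ratio of 1.65 (exact Poisson interval 1.54 to 1.76). Chromosome 15 had a ratio of 1.31, chromosomes 11 and 17 both 1.24, chromosome 16 had 1.17 and chromosome 6 had 1.15. Low ratios were found on X (0.347, with 6 loops), 14 (0.508), 9 (0.557) and 5 (0.572). The number of copies of a chromosome in these lines was not measured here. Without chromosomes 11, 15 and 19 the odds ratio for both promoters was 1.41 (1.32 to 1.5) and for facing CTCF motifs 3.43 (1.43 to 8.20).

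The loops with the highest lowest value had the ceiling value of 20 in all 4 lists. This was so in 13 members, of which the first 10 along the genome were named by the rule. A promoter of Epha2, an ephrin receptor kinase, was joined to the non-coding Gm13056 over 31.8 kb. Bhlhe40, a clock-linked repressor, was joined to an intron of Itpr1 over 219 kb. Irf2bp2, a transcriptional co-repressor gene, was joined to an exon of the non-coding A630001O12Rik over 257 kb, and the same exon to an intergenic anchor over 186 kb. The start of Itga3, a laminin-binding integrin subunit, was joined to an intergenic anchor over 25.4 kb.

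The other 5 were at Krt19, Klf10, the Krt8 and Krt18 region and Fam43a. Krt19, a simple epithelial keratin that marks ducts, was joined to Gm12349 and Gm14206 over 140 kb. The anchor at Gm35853 and Gm49499 was joined to Krt18 over 705 kb and to an intergenic anchor near Krt8 over 692 kb. These latter loops crossed 25 and 24 other anchors, 10 of them at promoters in each case. Fam43a was joined to Gm15742, inside Xxylt1, over 371 kb. The remaining 3 of the 13 were loops from 5031415H12Rik to Tgif1, from an intron of St8sia3os to Onecut2 and from the start of Ahnak into its own body, over 101, 154 and 87.9 kb.

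The motifs at these anchors differed in number. Of the 18 anchors of the 10 loops, the one at Gm35853, 18592 bp wide, held 8 AP-1, 5 HNF4 and 2 FOXA matches. The Krt18 anchor, 14004 bp wide, held 6, 1 and 2. Over all constitutive anchors the densities were 0.411, 0.167 and 0.160 per kb in the same order, so wide anchors hold several matches. Whether these counts exceed what the widths give was not tested. The Fam43a anchor held 5 FOXA matches. The anchors of Epha2, Bhlhe40, Krt19 and Klf10 held 0, as did the intergenic partner of Klf10 and the intergenic anchor near Krt8.

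The 5 longest members were all promoter to promoter loops. They joined Pfkfb2 to Gm26034 (1361 kb), Prkab1 to Wsb2 (1340 kb), D17Wsu92e to 4930539E08Rik (1093 kb), Tns4 to Krt19 (1062 kb) and Myh9 to Card10 (965 kb). In 4 of these the values were 1.87, 1.91, 1.99 and 1.99, which are values that many loops of the lists share. The loop from Tns4, which encodes a focal adhesion protein, to Krt19 had 6.48 in FOXA1 liver mets and 1.91, 1.99 and 1.99 in the others.

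Most anchors took part in a single constitutive loop, 4481 of 7905 (56.7%). At the other end 644 anchors had at least 5 and 103 at least 10, and 1243 loops touched 1 of the latter. The anchor at Gm35853 and Gm49499, chr15:101314431-101333022, had the most, 25. The lists held 59, 52, 43 and 44 loops there, counted at any span. The next was the anchor at Ehbp1l1, Fam89b and Sssca1 on chromosome 19 with 24, where the lists held 70, 55, 49 and 54 loops of any span. An exon of A630001O12Rik and Cirbp had 20 each, and an intergenic anchor 65.4 kb from Irf2bp2, Plec and Hes1 had 19 each. Krt18, Zfp36l2 and an intergenic anchor 67.0 kb from Zfp36l2 had 18 each.

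**Figure D4:**
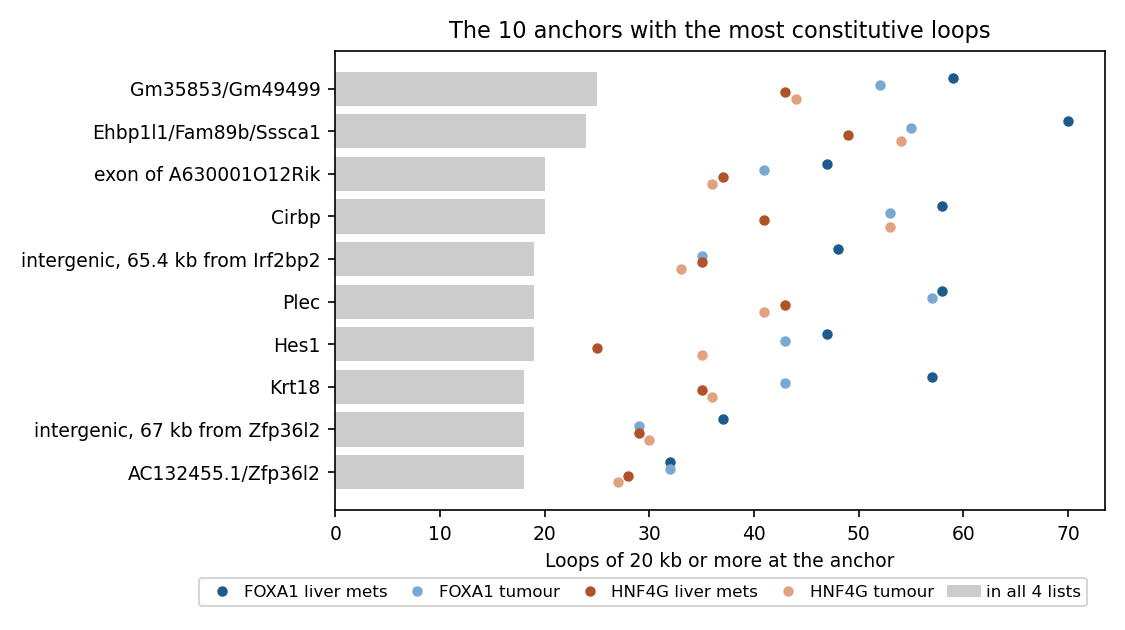
The number of constitutive loops (grey bars) and of loops of any span in each list (points) at the 10 anchors with the most constitutive loops, named by the genes that start there. The limit of 20 kb on the axis label holds for the bars only. The grey bars range from 18 to 25, and the points from 25 loops (Hes1, HNF4G liver mets) to 70 (Ehbp1l1, FOXA1 liver mets).

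The hubs differed in what they contacted. All 20 partners of Cirbp, a cold-induced RNA-binding protein gene, lay at promoters, among them Ptbp1, Polr2e, Gpx4, Stk11 and Ndufs7. At Ehbp1l1 it was 18 of 24, with Fosl1, Rela, Kat5, Sipa1, Map3k11 and Ltbp3 among them. Of all anchors 45.2% lay at a promoter, but 74.3% did in the chromosome 19 network that holds Ehbp1l1. Its partners were thus near that local share. Local shares around the other hubs were not set beside their counts. At Plec, which encodes the cytolinker plectin, it was 16 of 19. Hes1, a Notch target gene, had 4 promoter partners of 19, none of them of a protein-coding gene. Its loops reached 404 kb. The first of them joined it to an intergenic anchor 338 kb away with values of 20, 20, 11.2 and 20, and the next to 1 on the other side, 121 kb away, with 20, 20, 6.09 and 20. Irf2bp2, the intergenic anchor 65.4 kb from it and the A630001O12Rik exon were all joined in pairs. The first pair spanned 70.4 kb and had values of 20, 20, 3.06 and 20, and the other pairs had 20 in every list. That exon had 3 promoter partners of 20.

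The keratin hub on chromosome 15 ran from Gm35853 to the keratin genes. Its 25 loops spanned 39.3 to 779 kb, and 11 partners were promoters. They included Krt80, Krt7, Krt79, Krt8, Krt18, the immediate early gene Nr4a1, and Tns2. The loop to Krt18 had the value 20 in every list. The loop to Krt8, 682 kb, had 20, 3.78, 3.93 and 3.93. The loop to Krt7, 89.5 kb, had 3.81, 1.58, 1.99 and 2.87, and that to Nr4a1, 69.8 kb, had 2.55, 0.415, 0.146 and 0.171. The loops of the hub with the value 20 in at least 3 lists spanned 654, 692 and 705 kb, and the shortest of them ended 51.2 kb from the Krt18 anchor.

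Joined through shared anchors, the 8125 loops formed 1663 networks. Of these 848 (51.0%) were a single loop, while 149 networks of at least 10 anchors held 4567 loops (56.2%). The largest, on chromosome 19 from 3281684 to 7496295, joined 187 anchors by 344 loops, with 74.3% of anchors at promoters and 131 protein-coding genes. Ehbp1l1, Ltbp3 (15 loops), Neat1 (14) and Pold4 (12) were among its leading anchors. No single loop of it exceeded 690 kb, so the 4215 kb were bridged by chains.

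The next 3 networks lay on chromosome 11. The network around Bahcc1 and Baiap2 had 86 anchors and 163 loops. The network around Socs3 and C1qtnf1 had 83 anchors and 155 loops, and the one from Erbb2, the receptor kinase, through Csf3 and Med24, Nr1d1 and on to Krt19 had 82 anchors and 141 loops. Next came the network around Cdc42ep1, Lgals2, Myh9 and Card10 on chromosome 15, with 54 anchors, and that around Plekhg6 and Cd9 on chromosome 6, with 48. The 6 networks held 977 loops (12%).

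The size of the largest network moved with the rule for its loops. With a minimum span of 50 kb it had 69 anchors, and with only the 394 loops of value 2 or more in every list it had 13.

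Of 21728 protein-coding genes, 10786 had a promoter anchor, and 3392 of these (31.4%) had at least 1 constitutive loop there. At 498 of them (4.62%) there were 5 or more. The count of a gene adds up all of its promoter anchors, so several anchors can raise it. Genes with more loops of any kind had more constitutive ones: the median gene had 15 distinct loops of at least 20 kb, and the 498 genes had 68. The counts of the gene lists below are read against these shares, and the lists were chosen with results of these data known, so no test is given.

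Among endoderm and duct transcription factors, 15 of 20 genes with an anchor (75%, 53.1 to 88.8%) had a constitutive loop, and 3 had at least 5. The median gene of the list had 25.5 distinct loops. Onecut2, a cut-homeobox factor, had 9 of 31 distinct loops, the strongest at 154 kb with 20 in all 4 lists. Sox9, the duct progenitor factor, had 5 of 34, all 216 to 318 kb away. The strongest of these led to an intron of 2610035D17Rik with values of 20, 5.22, 11.1 and 10.7. Elf3, an epithelial ETS factor, had 5 of 38. Foxa1 itself had 1 of 20, with a span of 48.5 kb and values of 1.87, 0.364, 0.421 and 0.171. Foxa2 had 3 of 24. Hnf4g had 0 of 2 distinct loops, and Foxa3, Gata4 and Onecut1 had 0 of 22, 9 and 12.

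Among AP-1 and early response genes it was 11 of 13 (84.6%, 57.8 to 95.7%), with a median of 44 distinct loops. Myc, the growth regulator, had 11 constitutive loops, 24.4% of its 45 distinct loops. Its strongest led to D030024E09Rik, 452 kb away, with values of 20, 20, 12 and 3.79. Others reached into Pvt1, the non-coding gene next to Myc, over 133 to 343 kb for those in introns with values over 1 in every list. One of these, 343 kb away, had 20, 5.61, 1.94 and 5.93. Fosl2 had 6 of 33 and Atf3 had 6 of 55. Jun had 0 of 11 distinct loops and Ier2 0 of 34.

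Among epithelial keratin and junction genes it was 10 of 14 (71.4%, 45.4 to 88.3%), and 6 of the 14 had at least 5 loops (42.9%, against 4.62% of all genes with an anchor). Krt18 had 18, Krt19 and Cdh1 11 each, Jup 7, and Krt7 and Krt8 6 each. These were also loop-rich promoters, with 71, 85, 78, 112, 41 and 50 distinct loops. Krt18 had the largest share of constitutive ones among them, 25.4%, and Jup the smallest, 6.25%. Krt8 and Krt18, whose proteins pair into 1 filament, were joined to each other over 23.5 kb with values of 20, 20, 8.45 and 10.1. Krt19 was joined to Krt23 (657 kb, with 11.8, 11.9, 20 and 3.97) and to Krt20 (709 kb, with 8.90, 6.23, 3.98 and 3.98). The loops of Cdh1, E-cadherin, were all short, 21.5 to 60.3 kb, and 5 of the 11 ended in its own introns. The strongest of these spanned 26.6 kb, with 7.56, 2.40, 2.58 and 2.18. Tjp1, Ocln, Cldn3 and Esrp1 had 0 of 25, 17, 24 and 13.

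Pancreatic cancer driver genes had 4 of 10 (40.0%, 16.8 to 68.7%). Rnf43, a ubiquitin ligase that lowers Wnt receptors, had 5 of 70 distinct loops, added over 4 promoter anchors. Trp53, Smad4, Tgfbr2, Kdm6a and Brca2 had 0, of 34, 6, 11, 3 and 9 distinct loops. Loop architecture genes had 2 of 11 (18.2%, 5.14 to 47.7%), Smc3 with 3 of 45 distinct loops and Yy1 with 1 of 15. Ctcf, Rad21, Smc1a, Stag1, Stag2, Nipbl, Wapl, Pds5a and Pds5b had 0, with at most 20 distinct loops each. Mesenchymal genes had 5 of 11 (45.5%, 21.3 to 72.0%). Of these Vim, the mesenchymal filament gene, had 5 of 22, the strongest to an intron of Cubn 166 kb away with 12.3, 6.22, 3.0 and 1.65. Zeb1, Zeb2, Twist1, Prrx1, Sparc and Col1a1 had 0, of 7, 13, 1, 13, 5 and 21.

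Genes with ribosomal protein names (Rpl or Rps and a digit) had 18 of 58 (31.0%, 20.6 to 43.8%), close to the share of all genes, with a median of 20 distinct loops against 15. The names also take in paralogs, and 1 of the 18, Rps19bp1, encodes a binding partner of a ribosomal protein. Rps18 had 9 of 69 distinct loops and Rpl18 had 6 of 44. Of all protein-coding genes 49.6% had a promoter anchor, against 25% of the hepatocyte, 16.7% of the acinar and 41.7% of the neuron genes listed. Of 12 hepatocyte genes 3 had an anchor, Apoa1, Apoa2 and Apob, and 0 had a constitutive loop. Of 12 acinar genes Bhlha15 and Rbpjl had an anchor, and Rbpjl had 1 constitutive loop of 23. Of 12 neuron genes 5 had an anchor, and Grin1 alone had loops, 16 of 101. Snap25, Map2, Neurod1 and Dlg4 had 0. Loops say nothing of expression, so these counts do not show which genes the cells expressed.

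**Figure D5:**
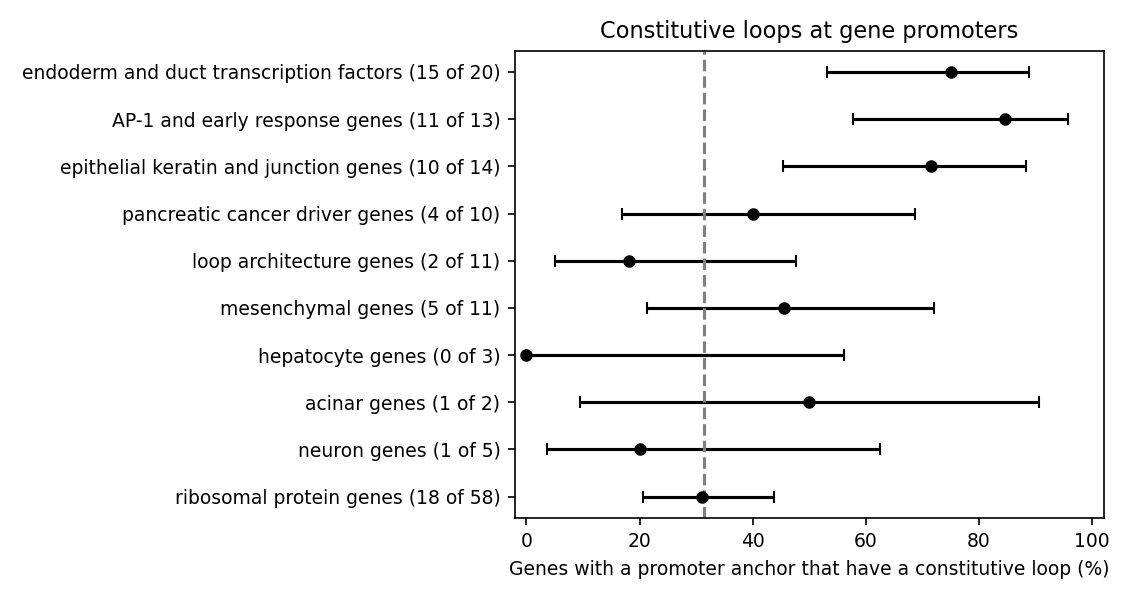
The percent of genes with a promoter anchor that had at least 1 constitutive loop, for each gene list, with 95% Wilson intervals and the numbers of genes beside the names. The dashed line is the share of all protein-coding genes with a promoter anchor, 31.4%. The AP-1, endoderm and epithelial lists lie to its right, at 71.4 to 84.6%, and the ribosomal protein list lies on it.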

How the data were processed

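FOXA1 and HNF4G Hi-ChIP had been done in 8 samples, 2 replicates of each of 4 groups, and the groups were taken from the sample titles. The authors processed read pairs with HiC-Pro 3.1.0 on mm10 (GRCm38), as the submitters' processing notes name, with DpnII as the enzyme and duplicates removed, and called loops with hichipper. They deposited 1 loop list per group covering both replicates, and how these were joined is not given in the sources used here. The value per loop is a score that the authors deposited without a name. The other deposited columns used are anchor coordinates, and the display score deposited by the authors followed from the value in every loop. Lists held 76323 to 125623 loops, without read counts, so depth is unknown. Columns left unused for lack of a sample numbered 0.

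Loops of the lists were joined by identical anchor pairs. The 30542 anchors never overlapped without being identical. Spans were distances between anchor midpoints. Starts, exons and gene bodies came from GENCODE M21, and sequence from GRCm38.p6, both strands being searched with overlaps counted. The CTCF core had 12 letters, with a choice of 2 bases at 4 of them. Shares were standardised to the span distribution of the constitutive loops, and Mantel-Haenszel odds ratios were given with Robins-Breslow-Greenland 95% intervals over 6 span ranges (20, 50, 100, 200, 500 and 1000 kb as lower limits). These steps were tested on simulated data. Networks were connected components of the constitutive loops. Scripts ran in Python with numpy, pandas and matplotlib.

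Members, gene lists and tests were chosen with earlier results of these data known. Named were the 10 members with the highest lowest value over the lists (ties by the sum, then by position), the 5 longest, the 2 on either side of 20 kb, the 10 anchors with the most constitutive loops, the 6 networks with the most anchors, 3 loops with facing CTCF motifs, and list genes with at least 5 constitutive loops or with an anchor and none. Some genes that met these rules are not reported here. Other loops, partners and genes named, among them Foxa1, Foxa2, Smc3, Yy1 and Rbpjl and the further loops of the hubs, were chosen after their values were seen. Alternatives covered spans, promoter windows, matching, motif length, comparison loops and lists left out.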

Additional observations from a re-analysis of the deposited data

How the results depend on the processing

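No paired analysis was possible because each group had 1 loop list that covered both of its replicates. No replicate was left out for the same reason, and lists were left out instead. The lists hold no read counts, so a loop absent from a list cannot be told from one too thinly read there. The number of constitutive loops was 4555 with a minimum span of 50 kb, 394 with a value of 2 or more in every list and 51709 when anchors were widened by 5 kb. Leaving out 1 list gave 10767 to 14429 loops, the most without HNF4G tumour. The largest network had 69 anchors at 50 kb and 13 at a value of 2, where 169 networks were left, and 222 to 292 anchors with a list left out. Leaving out 1 list gave 1973 to 2115 networks.

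The odds ratio for both anchors at promoters was 1.03 with loops per anchor matched, and 0.895 with anchor width matched as well. That latter matching gave 0.958 for no promoter and 1.36 for CTCF motifs in both anchors. With starts within 5 kb the odds ratio for exactly 1 promoter was 0.975. Facing CTCF motifs gave 1.92 against loops of 2 lists, 1.66 against loops of 3 lists and 1.46 with the 9-letter core. CTCF motifs in both anchors gave 1.42 near the midpoint. Their causes were not tested. For these 5 classes of loop 69 of 78 alternatives kept the direction and the side of the interval. The matching on span, width and loops together, and the runs without chromosomes 11, 15 and 19, were chosen after seeing the data.

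Within the narrowest, middle and widest anchors the density in constitutive over other anchors was 0.806, 0.891 and 0.865 for FOXA, 0.855, 0.974 and 0.985 for AP-1, and 0.977, 0.953 and 0.853 for YY1. In the narrowest it was 1.06 for HNF4 and 1.71 for CTCF. In the central 2 kb and the 3 width ranges the motif ratios kept their side of 1, but the interval included 1 for AP-1 in the middle and widest anchors, for YY1 in the narrowest and middle and for HNF4 in each. At promoters the order for AP-1 turned, with 0.334 per kb in constitutive and 0.323 in other anchors, and outside promoters HNF4 had 0.171 and 0.172. The G+C difference was 2.55 percentage points in the central 2 kb, and 1.87, 2.17 and 2.55 points in the narrowest, middle and widest anchors. The share of genes with a constitutive loop was 32.8% with starts within 5 kb.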
